A study of Mus musculus with 20 samples.

Results

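The genes described here are 55 genes of the G2/M transition and of mitosis, among them cyclins, mitotic kinases, spindle checkpoint proteins, kinesins, kinetochore proteins and proteins of cytokinesis. They were taken by symbol from a given list, which was drawn up with earlier results of these data known. All 55 had a row in the deposited table and all 55 passed the filter on low values, out of 38996 genes with a name and 19876 genes tested. The lowest single value of a member was 26.6 normalised counts, for Cdkn3, above the filter's minimum of 10.

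RNA was sequenced from 20 mouse mammary tumours grown from SSM3, a mammary tumour line that is positive for the oestrogen receptor, after injection into a mammary gland of immunocompetent 129S6/SvEv mice aged 2 to 4 months. The study compared the effects of letrozole, which blocks oestrogen synthesis by aromatase, and of an antibody against the checkpoint receptor PD-1, on transcription. Treatment started at about 150 mm3. There were 4 groups of 5 tumours. The letrozole + anti-PD-1 group was ovariectomised and received letrozole at 1 mg/kg under the skin every day for 25 days, with 250 µg of antibody into the peritoneum 3, 5 and 7 days after surgery. The letrozole group had the same surgery and drug without the antibody. The anti-PD-1 group had sham surgery, the antibody and daily saline with 5% ethanol. The vehicle group had sham surgery and the same saline. No group had ovariectomy or letrozole singly, so their effects cannot be told apart, and "letrozole" below names the pair. All tumours came from 1 cell line. Per the design text, tumours within a group are biological replicates.

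A cell enters mitosis when cyclin B binds and activates the kinase Cdk1, with the phosphatases of the Cdc25 family removing the inhibitory phosphates. Kinetochores link centromeres to spindle microtubules, kinesins move and shape the spindle, and the spindle checkpoint holds the anaphase-promoting complex back until every chromosome is attached. The complex, activated by Cdc20, then destroys cyclin B and securin, and the contractile ring divides the cell. Most of these genes are transcribed late in the cell cycle through promoter elements called the cell cycle genes homology region (CHR) and the CCAAT box, which are bound by the MuvB complexes and by NF-Y, with B-Myb and Foxm1 as activators and the DREAM complex as the repressor in resting cells. In oestrogen receptor-positive breast tumours, oestrogen drives cell division, and the product of Mki67 is the usual stain for dividing cells.

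Values are normalised counts: reads per transcript divided by 1 size factor per library, as deposited, with 1 transcript kept for each gene. Summed over the 1 transcript kept per gene, which leaves out all other transcripts, recovered reads ran from 12497282 to 31387527 per library. The shallowest library by this sum, anti-PD-1 replicate 1, also spent 12.9% of these reads on the 10 genes it held most of. Vehicle replicate 3 had the highest summed fibroblast and macrophage markers of its group. These are the 2 libraries that stood apart, and counts are given below with and without them. Letrozole replicate 5 had a still higher fibroblast sum, 75591 against 66531 in vehicle replicate 3, and was not set apart. Vehicle replicate 3 was also the lowest vehicle tumour for 33 of 55 members, so leaving it out raises their vehicle mean. All 8 luminal markers were above 0 in all 20 libraries, including Esr1, the oestrogen receptor, at a median of 5796 normalised counts. Among the members, Top2a had the highest median level per transcript length, at 1332 normalised counts per kilobase, followed by Prc1 at 1045 and Aurka at 958. Troap, at 50.9 per kilobase, Mad2l1, at 75.5, and Espl1, at 79.8, had the lowest.

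Promoter sequences (RefSeq, GRCm38.p6, 250 bases before to 50 after the annotated start) were matched by symbol for 45 of the 55 members, which have 48 promoters. The sequences below belong to the members that carry a CHR match among those with the smallest p for letrozole alone, and are shown because the same short elements recur across the list. Capitals mark CHR matches, spelled TTTGAA or TTCGAA, and CCAAT matches, spelled CCAAT, on either strand, so that TTCAAA and ATTGG are matches of the opposite strand. Each stretch runs from 130 bases before to 30 bases after the start, and for Bub1b from 200 bases before.
Cdc20 (chr4:118437314-118437473, minus strand): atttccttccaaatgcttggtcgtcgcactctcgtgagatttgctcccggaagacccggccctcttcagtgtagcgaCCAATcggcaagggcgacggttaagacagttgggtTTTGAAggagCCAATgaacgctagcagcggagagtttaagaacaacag
Anln (chr9:22389177-22389336, minus strand): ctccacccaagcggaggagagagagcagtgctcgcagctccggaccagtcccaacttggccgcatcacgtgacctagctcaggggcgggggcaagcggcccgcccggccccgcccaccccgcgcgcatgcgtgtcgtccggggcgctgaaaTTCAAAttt
Kif15 (chr9:122950951-122951110, plus strand): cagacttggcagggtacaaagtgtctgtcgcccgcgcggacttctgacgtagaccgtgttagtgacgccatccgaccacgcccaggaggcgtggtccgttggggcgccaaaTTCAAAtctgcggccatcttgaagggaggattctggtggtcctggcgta
Bub1b (chr2:118598011-118598240, plus strand): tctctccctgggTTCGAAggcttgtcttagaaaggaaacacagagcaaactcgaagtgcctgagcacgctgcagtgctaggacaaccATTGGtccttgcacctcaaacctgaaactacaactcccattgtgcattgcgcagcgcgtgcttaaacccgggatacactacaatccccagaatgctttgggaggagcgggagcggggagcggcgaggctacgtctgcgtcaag
Kif2c (chr4:117178743-117178902, minus strand): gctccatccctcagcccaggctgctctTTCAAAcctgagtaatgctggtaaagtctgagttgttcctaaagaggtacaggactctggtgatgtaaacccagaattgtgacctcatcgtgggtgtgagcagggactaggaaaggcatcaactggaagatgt
Racgap1 (chr15:99651627-99651786, minus strand): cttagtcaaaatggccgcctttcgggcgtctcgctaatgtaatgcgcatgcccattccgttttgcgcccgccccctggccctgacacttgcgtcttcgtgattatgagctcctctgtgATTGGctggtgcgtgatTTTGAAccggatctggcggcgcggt

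In Cdc20 the first base of the CHR match lies 18 bases before the start, between CCAAT matches at 53 and 8 bases before it. Kif15 has CHR matches at 19 and 234 bases before the start and Kif2c at 103 before it. Bub1b has one at 188 bases before and a nearer one at 41 bases after the start, and the printed stretches leave out that one and the far match of Kif15. In Racgap1 the CHR match lies 6 bases after the start, and in Anln there are 2, at 22 and 29 bases after it, the second running past the end of the printed stretch. Over the list, 39 of 48 member promoters held a CHR match (81.2%), against 19.1% of the 32803 other promoters of the same length. A CCAAT match was also present in 39 of 48 (81.2%), against 37.3% of the others. Both elements occurred together in 35 of 48 (72.9%), against 7.43%. A CHR match within 100 bases before to 50 after the start was present in 72.9% of member promoters, against 8.49%, and 28 of 48 held more than 1 CCAAT match (58.3%), against 11.6%. The median GC content was 59.0% in member promoters and 52.7% in the others, and the 2 sets were not matched for it. The members whose promoters held no CHR match were Birc5, Ccnb1, Cenpe, Mad2l1, Nek2, Nuf2, Nusap1, Pttg1 and Troap. Aurkb, Ccna2, Cdc25c, Cdca2, Dlgap5, Foxm1, Incenp, Kif20a, Spc24 and Tpx2 were not searched. A match is a string of letters and was not tested as a binding site.

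**Figure D1:**
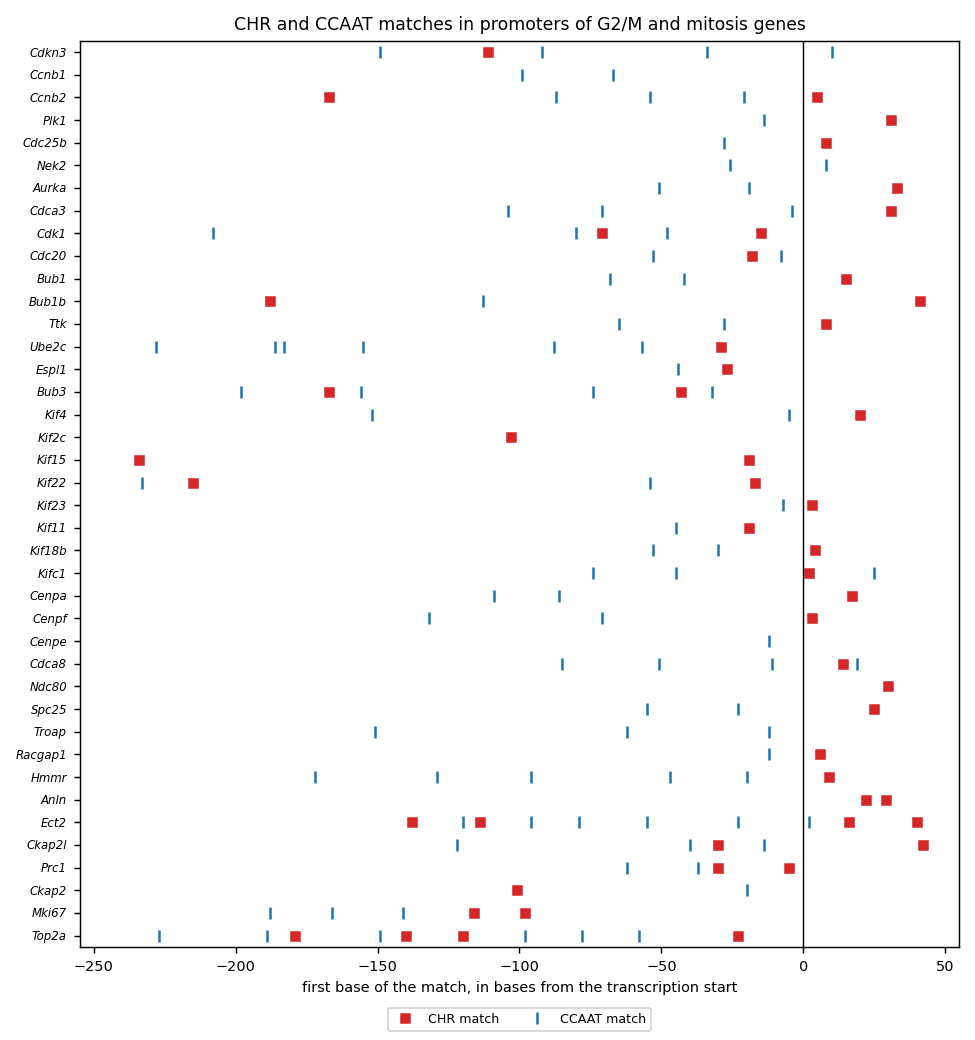
Positions of CHR and CCAAT matches in member promoters, as the distance of the first base of each match from the annotated start (x axis, bases, from 250 before to 50 after), with 1 line for each of the 40 genes with a match, every promoter of a gene on the same line. CHR matches gather near the start, with 35 of 48 promoters holding one within 100 bases before to 50 after it.

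With letrozole alone, every member was lower on average and 15 passed the test. All 55 members had a lower mean log2 level in the letrozole than in the vehicle tumours, where 46.7% of the 19876 tested genes did. In the limma test, 15 of the 55 fell and none rose, against 0.548% of all tested genes that fell. Over all tested genes 80 rose and 109 fell, or 42 and 99 once each library was centred on its median. The median log2 difference of the members was −0.72, and that of all tested genes 0.03. The largest called decrease was that of Cdc20 (2.19-fold lower) and the smallest that of Kif22 (1.62-fold lower). In 33 of 55 members every letrozole tumour lay below every vehicle tumour, which held for 1.97% of all tested genes. In bulk tumour RNA, a smaller share of dividing cells and less RNA of these genes per cell cannot be told apart.

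Read by promoter, the 36 members with a CHR match had a median log2 difference between letrozole and vehicle of −0.72, and 11 fell. The 9 searched members without one had a median of −0.72 as well, and 2 fell. Outside the list, 800 tested genes had both elements in 1 promoter, of which 12 fell (1.5%), with a median log2 difference of −0.01. G2/M genes that are not members were not taken out of these 800. Of the tested genes outside the list, 0.534% of those with a promoter without CHR fell, and 0.585% of those with any promoter sequence. The members with and without a match were not tested against each other.

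**Figure D2:**
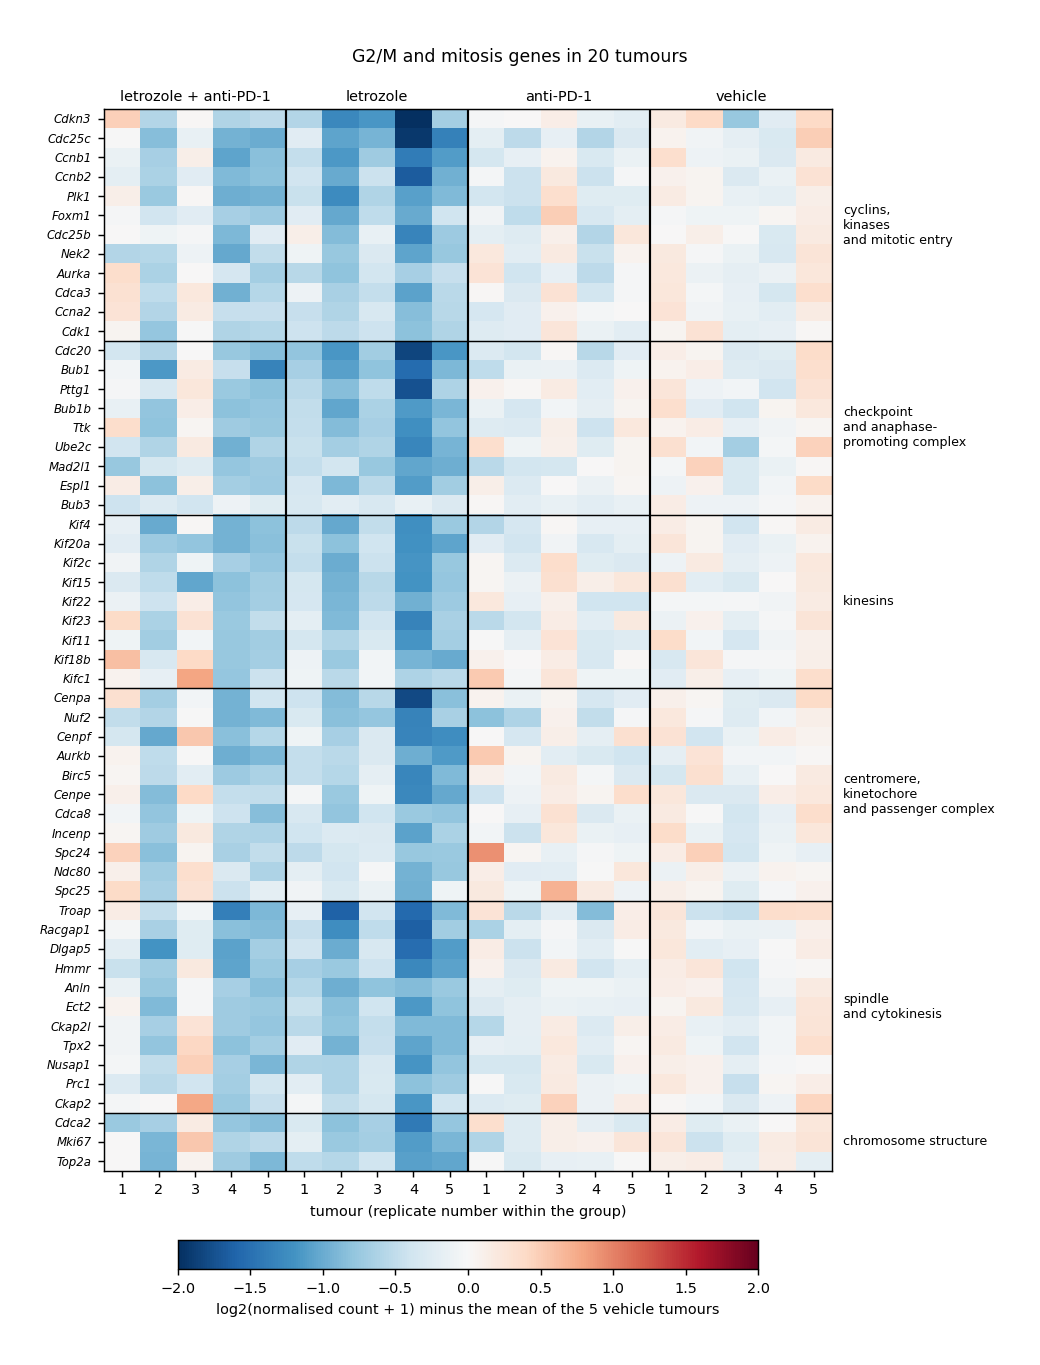
Deviation of each of the 55 members (lines, ordered by subgroup) from its mean over the 5 vehicle tumours, as the difference in log2(normalised count + 1), with 1 column per tumour and the groups in the order letrozole + anti-PD-1, letrozole, anti-PD-1 and vehicle. Letrozole replicate 4 is lowest of its group for 45 of 55 members, and letrozole + anti-PD-1 replicates 1 and 3 are the 2 highest of theirs for 47 of 55.

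How many members passed the threshold depended on the libraries and on the tool, while the direction did not: all 55 stayed below 0 in each of the 33 alternatives. With vehicle replicate 3 and anti-PD-1 replicate 1 left out, 36 fell, where 489 of all 19876 tested genes fell, against 109 in the main fit. With vehicle replicate 3 alone left out, 32 fell (336 over all tested genes). That tumour was the lowest vehicle tumour for 33 of 55 members. Without letrozole + anti-PD-1 replicate 3, which enters through the shared estimate of the spread, 26 fell (135). The count was 2 without vehicle replicate 1, 6 without replicate 2, 4 without replicate 4 and 3 without replicate 5 (54, 56, 62 and 51 over all tested genes). Without letrozole replicate 2 it was 5, and it was 3 without replicate 4 and 3 without replicate 5 (83, 66 and 60). Without anti-PD-1 replicate 2 it was 7, and 9 without replicate 3 or replicate 5 (87, 95 and 92). On recovered reads, edgeR called 8 members and DESeq2 41, and of all tested genes they called 108 and 371 lower. Cdc20 and Anln were called in all 33 alternatives and Kif20a in 32, the exception being the fit without vehicle replicate 1. Ccnb1 was called in 29, Bub1b in 27, Kif15 in 26, Kif2c in 25, and Mad2l1 and Racgap1 in 22 each. Ccnb2, Hmmr and Kif22 kept their call in only 16 each, Bub1 and Cdc25c in 14 each and Kif4 in 12. EdgeR called none of the genes with 16 or fewer.

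Among the 12 cyclins, kinases and other genes of mitotic entry, 3 fell with letrozole alone, against 0.548% of all tested genes. They were Ccnb1, Ccnb2 and Cdc25c, and the median log2 difference of the 12 was −0.61. Ccnb1, which encodes cyclin B1, the partner of Cdk1, had 1084, 684, 923, 574 and 696 normalised counts in the letrozole tumours, against 1923, 1417, 1384, 1237 and 1723 in the vehicle tumours. With the antibody, Ccnb1 had 1379, 954, 1646, 733 and 850.1 in the letrozole + anti-PD-1 tumours, against 1188, 1357, 1595, 1224 and 1386 in the anti-PD-1 tumours. No letrozole tumour reached the vehicle range of Ccnb1, while letrozole + anti-PD-1 replicates 1 and 3 lay within or above the anti-PD-1 range and the other 3 below it. Ccnb1 averaged 792 ± 207 in letrozole and 1537 ± 279 in vehicle tumours (SD, n = 5 each), a 1.97-fold lower level (log2 −0.97, SE 0.20, adjusted p = 0.0206).

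Ccnb2, cyclin B2, had 774, 497, 747, 315 and 515 normalised counts in the letrozole tumours, against 1062, 1047, 819, 915 and 1227 in the vehicle tumours. With the antibody, Ccnb2 had 879.8, 648, 857, 544 and 569.9 in the letrozole + anti-PD-1 tumours, against 981, 743, 1150.0, 748 and 993 in the anti-PD-1 tumours. The letrozole and vehicle values of Ccnb2 did not overlap, and 3 of the 5 letrozole + anti-PD-1 values lay below all anti-PD-1 values. Ccnb2 was 1.85-fold lower with letrozole alone (log2 −0.89, SE 0.21, adjusted p = 0.0458). Cdc25c, a phosphatase that activates Cdk1, had 259, 146, 159, 79.1 and 119 normalised counts in the letrozole tumours, against 319, 289, 268, 246 and 430.4 in the vehicle tumours. With the antibody, Cdc25c had 304, 168, 274, 157 and 153 in the letrozole + anti-PD-1 tumours, against 265, 212, 271, 202 and 249 in the anti-PD-1 tumours. Letrozole replicate 1 overlapped the vehicle range of Cdc25c, and letrozole + anti-PD-1 replicates 1 and 3 exceeded every anti-PD-1 tumour. Cdc25c was 2.14-fold lower with letrozole alone (log2 −1.10, SE 0.26, adjusted p = 0.0464), and 12.7% of its exon bases are shared with a gene on the opposite strand.

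Cdk1, the kinase of mitotic entry, had 1167, 1077, 1164, 880.2 and 1018 normalised counts in the letrozole tumours, against 1609, 1893, 1360.2, 1377 and 1571 in the vehicle tumours. With the antibody, Cdk1 had 1616, 908, 1540.0, 1020.2 and 1039 in the letrozole + anti-PD-1 tumours, against 1294, 1326, 1833, 1408 and 1342 in the anti-PD-1 tumours. All letrozole values of Cdk1 were below all vehicle values, and the same 3 letrozole + anti-PD-1 tumours, replicates 2, 4 and 5, were below all anti-PD-1 values. The difference for letrozole alone did not pass the test (log2 −0.55, SE 0.15, adjusted p = 0.0942). Plk1, polo-like kinase 1, which acts in spindle assembly and mitotic entry, had 1025, 582, 919, 654 and 758 normalised counts in the letrozole tumours, against 1561, 1456, 1254, 1223 and 1513 in the vehicle tumours. With the antibody, Plk1 had 1507, 829, 1418, 709.5 and 726 in the letrozole + anti-PD-1 tumours, against 1087, 1036, 1769, 1178 and 1176 in the anti-PD-1 tumours. Plk1 showed no overlap between letrozole and vehicle, and replicates 2, 4 and 5 of letrozole + anti-PD-1 lay below the anti-PD-1 range. Plk1 missed the threshold narrowly (log2 −0.86, SE 0.21, adjusted p = 0.0558).

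Ccna2, cyclin A2, had 1109, 1001, 1222, 839 and 1035 normalised counts in the letrozole tumours, against 1839.9, 1451, 1372, 1312 and 1698 in the vehicle tumours. With the antibody, Ccna2 had 1848, 1015, 1712, 1111 and 1107 in the letrozole + anti-PD-1 tumours, against 1201, 1304, 1617, 1476 and 1536 in the anti-PD-1 tumours. Letrozole tumours were all below vehicle tumours for Ccna2, but letrozole + anti-PD-1 replicates 1 and 3 were above every anti-PD-1 tumour and the other 3 below every one. Neither difference passed the test (log2 −0.56, adjusted p = 0.104 for letrozole alone and log2 −0.11, adjusted p = 0.814 with the antibody). Aurka, the Aurora A kinase of spindle poles, had 1492, 1247, 1697, 1374 and 1597 normalised counts in the letrozole tumours, against 2532, 2008, 1926, 2006 and 2545 in the vehicle tumours. With the antibody, Aurka had 2799, 1403, 2187, 1725 and 1362 in the letrozole + anti-PD-1 tumours, against 2647, 1667, 1944, 1513 and 2149.9 in the anti-PD-1 tumours. For Aurka the letrozole and vehicle values were separate, and letrozole + anti-PD-1 replicate 1 was the highest of all 20 tumours. Aurka did not pass the test with letrozole alone (log2 −0.57, adjusted p = 0.143).

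Foxm1, a transcription factor of G2/M genes, had 719, 412, 593, 417 and 642 normalised counts in the letrozole tumours, against 829.7, 794, 796, 867 and 932 in the vehicle tumours. With the antibody, Foxm1 had 830.0, 643, 722, 533 and 508 in the letrozole + anti-PD-1 tumours, against 803, 594, 1187, 675 and 736 in the anti-PD-1 tumours. Letrozole and vehicle values of Foxm1 did not overlap, and letrozole + anti-PD-1 replicates 4 and 5 lay below the anti-PD-1 range. The Foxm1 difference did not pass with letrozole alone (log2 −0.63, SE 0.18, adjusted p = 0.114). Of the remaining members of mitotic entry, Cdkn3, a phosphatase that acts on Cdk1, had the largest log2 difference of all members without passing (log2 −1.16, adjusted p = 0.0685). It is also the member with the lowest single value, 26.6 in letrozole replicate 4. Cdc25b (log2 −0.59), Nek2, a centrosome kinase (log2 −0.59), and Cdca3, an adaptor for the destruction of Wee1 (log2 −0.57), did not pass either.

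The 9 checkpoint and anaphase-promoting complex genes had the lowest median of the subgroups with letrozole alone, at a log2 difference of −0.80. Of the 9, 4 fell, against 0.548% of all tested genes: Cdc20, Bub1, Bub1b and Mad2l1. Cdc20, the activator of the anaphase-promoting complex, had 1187, 920.2, 1266, 576 and 916 normalised counts in the letrozole tumours, against 2250.2, 2133, 1689, 1733 and 2648 in the vehicle tumours. With the antibody, Cdc20 had 1589, 1379.8, 2063, 1217 and 1143 in the letrozole + anti-PD-1 tumours, against 1713, 1595, 2097, 1397 and 1764 in the anti-PD-1 tumours. The highest letrozole value of Cdc20 was below the lowest vehicle value, and letrozole replicate 4 was the lowest of all 20 tumours. Cdc20 averaged 973 ± 272 in letrozole and 2091 ± 396 in vehicle tumours (SD, n = 5 each) and was 2.19-fold lower (log2 −1.13, SE 0.19, adjusted p = 0.00468), the smallest adjusted p of the list. With the antibody present the Cdc20 difference did not pass (log2 −0.23, SE 0.19, adjusted p = 0.635).

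Bub1b, the checkpoint protein BubR1, had 2038, 1398, 1848, 1303 and 1521 normalised counts in the letrozole tumours, against 3645, 2468, 2189.5, 2982 and 3336 in the vehicle tumours. With the antibody, Bub1b had 2586, 1663, 3157, 1630.0 and 1682 in the letrozole + anti-PD-1 tumours, against 2614, 2269.8, 2769, 2545 and 3000.3 in the anti-PD-1 tumours. Bub1b did not overlap between letrozole and vehicle, and letrozole + anti-PD-1 replicate 3 was above all anti-PD-1 tumours, replicate 1 among them and the other 3 below. Bub1b was 1.8-fold lower with letrozole alone (log2 −0.85, SE 0.18, adjusted p = 0.0265). Mad2l1, which encodes the checkpoint protein Mad2 that holds Cdc20, had 527, 567, 436, 357 and 374 normalised counts in the letrozole tumours, against 716, 1013, 595, 666 and 742 in the vehicle tumours. With the antibody, Mad2l1 had 435, 573, 615, 429 and 450.1 in the letrozole + anti-PD-1 tumours, against 504, 567, 578, 735 and 759 in the anti-PD-1 tumours. For Mad2l1, the letrozole and vehicle values were separate and 3 of 5 letrozole + anti-PD-1 values lay below the anti-PD-1 range. Mad2l1 was 1.65-fold lower (log2 −0.72, SE 0.17, adjusted p = 0.042).

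Bub3, a partner of Bub1 and BubR1, had 1667, 1805, 1669.8, 1882 and 1706 normalised counts in the letrozole tumours, against 2315, 1948, 1958, 2065 and 2194 in the vehicle tumours. With the antibody, Bub3 had 1565, 1727, 1603, 1958 and 1764 in the letrozole + anti-PD-1 tumours, against 2126, 1814, 1893, 1810.1 and 1896 in the anti-PD-1 tumours. Bub3 had the smallest difference of all 55 members, although its letrozole and vehicle values did not overlap, and here letrozole + anti-PD-1 replicates 1 and 3 were the lowest of their group. Bub3 was 1.2-fold lower with letrozole alone and did not pass (log2 −0.26, SE 0.08, adjusted p = 0.132). Bub1, the checkpoint kinase, fell and was 2-fold lower (adjusted p = 0.0461), a call kept in 14 of 33 alternatives. Ttk, the kinase Mps1 (log2 −0.80), Espl1, the separase (log2 −0.72), Pttg1, the securin that inhibits it (log2 −0.85), and Ube2c, the ubiquitin-conjugating enzyme of the complex (log2 −0.79), did not pass with letrozole alone. Ube2c shares 22.8% of its exon bases with Tnnc2, a muscle troponin gene on the opposite strand, and muscle markers were high in some letrozole tumours, so the level of Ube2c is uncertain.

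**Figure D3:**
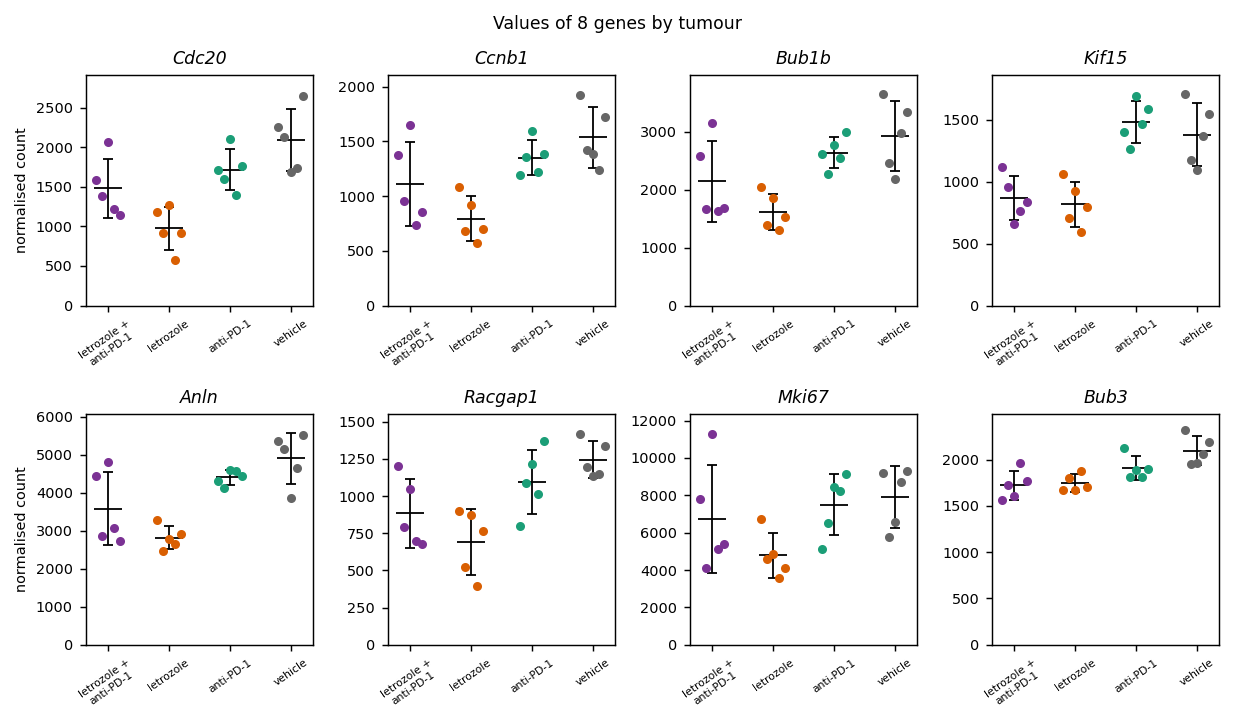
Normalised counts of 8 members in each of the 20 tumours (points, replicates 1 to 5 from left to right), with the group mean and SD, in the order letrozole + anti-PD-1, letrozole, anti-PD-1 and vehicle. Letrozole values of Cdc20 run from 576 to 1266 and vehicle values from 1689 to 2648, while those of Mki67 overlap.

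Of the 9 kinesins, 5 fell with letrozole alone, against 0.548% of all tested genes. They were Kif15, Kif20a, Kif2c, Kif22 and Kif4, and the subgroup median was −0.69 on the log2 scale. Kif15, a plus-end motor that helps to keep the spindle bipolar, had 1059, 705, 925, 594 and 797 normalised counts in the letrozole tumours, against 1703, 1174, 1095, 1368 and 1549 in the vehicle tumours. With the antibody, Kif15 had 1115, 954, 661, 766 and 836 in the letrozole + anti-PD-1 tumours, against 1398, 1259, 1694, 1468 and 1587 in the anti-PD-1 tumours. Kif15 was the only member whose values did not overlap in either comparison, and letrozole + anti-PD-1 replicate 3, high for most members, had the lowest Kif15 of its group. Kif15 was 1.7-fold lower with letrozole alone (log2 −0.76, SE 0.16, adjusted p = 0.0245) and 1.73-fold lower with the antibody present (log2 −0.79, SE 0.16, adjusted p = 0.0196).

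Kif20a, a kinesin of the central spindle and of cytokinesis, had 1554, 1203, 1597, 917 and 1017 normalised counts in the letrozole tumours, against 2490.1, 2193, 1809, 1927 and 2229 in the vehicle tumours. With the antibody, Kif20a had 1811, 1283, 1219.8, 1101 and 1184 in the letrozole + anti-PD-1 tumours, against 1800.3, 1616, 2012, 1689 and 1855 in the anti-PD-1 tumours. Letrozole and vehicle did not overlap for Kif20a, and 4 of 5 letrozole + anti-PD-1 values lay below all anti-PD-1 values, replicate 1 being the exception. Kif20a was 1.72-fold lower with letrozole alone (log2 −0.79, SE 0.15, adjusted p = 0.0122), and 29.3% of its exon bases are shared with Cdc23 on the opposite strand, so its level is uncertain. Kif2c, which takes microtubules apart at centromeres, had 1176, 825, 1210.0, 724 and 964 normalised counts in the letrozole tumours, against 1526, 1847, 1439.7, 1524 and 1903 in the vehicle tumours. With the antibody, Kif2c had 1563, 1084, 1550.0, 1037 and 961 in the letrozole + anti-PD-1 tumours, against 1684, 1357, 2097, 1384 and 1335 in the anti-PD-1 tumours. The letrozole values of Kif2c were all below those of vehicle, and replicates 2, 4 and 5 of letrozole + anti-PD-1 were below all of anti-PD-1. Kif2c was 1.7-fold lower (log2 −0.77, SE 0.17, adjusted p = 0.0319).

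Kifc1, a minus-end kinesin that focuses spindle poles, had 989, 724, 1005, 684 and 719.8 normalised counts in the letrozole tumours, against 900.3, 1140.3, 932, 991 and 1338 in the vehicle tumours. With the antibody, Kifc1 had 1100.1, 935, 1809, 614 and 780.3 in the letrozole + anti-PD-1 tumours, against 1510.1, 1017, 1244, 992 and 983 in the anti-PD-1 tumours. Kifc1 overlapped in both comparisons, with letrozole replicates 1 and 3 inside the vehicle range and letrozole + anti-PD-1 replicate 3 the highest of all 20 tumours. Kifc1 had the smallest difference of the kinesins (log2 −0.37, 95% interval −0.82 to 0.08, adjusted p = 0.465). Kif22, a chromosome-bound motor (log2 −0.69, adjusted p = 0.0493), and Kif4, a motor of chromosome arms and the central spindle (log2 −0.80, adjusted p = 0.0491), fell, each close to the threshold, and Kif4 shares 15.1% of its exon bases with Pdzd11 on the opposite strand. Kif11, the motor that separates spindle poles (log2 −0.62), Kif18b, which acts on astral microtubules (log2 −0.57), and Kif23, a motor of the central spindle (log2 −0.69), did not pass.

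None of the 11 centromere, kinetochore and passenger complex genes passed limma's threshold with letrozole alone, although 10 had an unadjusted p under 0.05, as 13.9% of all tested genes did, and the subgroup median was −0.63 on the log2 scale. On recovered reads edgeR called 0 of them and DESeq2 5. Cenpa, the histone H3 variant of centromeres, had 624, 459, 571, 239.8 and 467 normalised counts in the letrozole tumours, against 898, 861, 708, 680.4 and 1095 in the vehicle tumours. With the antibody, Cenpa had 1039, 519, 806, 436 and 631 in the letrozole + anti-PD-1 tumours, against 881, 763, 867, 659 and 713 in the anti-PD-1 tumours. Letrozole values of Cenpa were all below vehicle values, and letrozole + anti-PD-1 replicate 1 was above all anti-PD-1 tumours. The Cenpa difference did not pass (log2 −0.89, SE 0.24, adjusted p = 0.0766). Nuf2, of the Ndc80 complex that binds microtubules, had 555, 384, 399, 269.8 and 437 normalised counts in the letrozole tumours, against 791, 672, 573, 661 and 741 in the vehicle tumours. With the antibody, Nuf2 had 487, 454, 681, 353 and 372 in the letrozole + anti-PD-1 tumours, against 385, 443, 729, 486 and 669 in the anti-PD-1 tumours. Nuf2 was separate between letrozole and vehicle by a narrow gap and overlapped between the antibody groups. It did not pass with letrozole alone (log2 −0.78, SE 0.21, adjusted p = 0.0769).

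Spc25, of the same complex, had 370.0, 316, 355, 199 and 369 normalised counts in the letrozole tumours, against 424, 406, 329.5, 383 and 415 in the vehicle tumours. With the antibody, Spc25 had 510.1, 248, 476, 289 and 341 in the letrozole + anti-PD-1 tumours, against 449, 369, 631, 441 and 364 in the anti-PD-1 tumours. Letrozole replicates 1, 3 and 5 lay inside the vehicle range of Spc25, and letrozole replicate 4 was again the lowest of the group. Spc25 had the smallest difference of the subgroup (log2 −0.31, 95% interval −0.75 to 0.12, adjusted p = 0.528). Birc5, survivin, a subunit of the chromosomal passenger complex, had 477, 447, 585, 268 and 359.9 normalised counts in the letrozole tumours, against 517, 831, 596, 663 and 751 in the vehicle tumours. With the antibody, Birc5 had 679, 462, 575, 399 and 425 in the letrozole + anti-PD-1 tumours, against 709.5, 640.3, 754, 646 and 542 in the anti-PD-1 tumours. Birc5 overlapped through letrozole replicate 3, and letrozole + anti-PD-1 replicates 2, 4 and 5 were below all anti-PD-1 values. It did not pass with letrozole alone (log2 −0.68, SE 0.19, adjusted p = 0.101). The other subunits of the passenger complex gave log2 differences of −0.68 for Aurkb, its kinase, −0.54 for Incenp, its scaffold, and −0.60 for Cdca8, the borealin. The kinetochore genes gave −0.63 for Cenpe, a kinetochore motor, −0.72 for Cenpf, −0.46 for Ndc80 and −0.53 for Spc24, again without passing.

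Of the 11 spindle and cytokinesis genes, Anln, Racgap1 and Hmmr fell with letrozole alone, against 0.548% of all tested genes. The subgroup median was −0.72 on the log2 scale. Anln, the contractile ring protein anillin, had 3274, 2474, 2788, 2655 and 2924 normalised counts in the letrozole tumours, against 5367, 5147, 3861, 4646 and 5519 in the vehicle tumours. With the antibody, Anln had 4451, 2867, 4802, 3080.3 and 2719 in the letrozole + anti-PD-1 tumours, against 4306, 4132, 4606, 4565 and 4444 in the anti-PD-1 tumours. Anln was separate between letrozole and vehicle, and its letrozole values were close to each other, from 2474 to 3274. Anln averaged 2823 ± 302 in letrozole and 4908 ± 672 in vehicle tumours (SD, n = 5 each) and was 1.73-fold lower (log2 −0.79, SE 0.14, adjusted p = 0.00642). Racgap1, of the centralspindlin complex, had 897, 525, 871, 399 and 765 normalised counts in the letrozole tumours, against 1415, 1194, 1135, 1149 and 1338 in the vehicle tumours. With the antibody, Racgap1 had 1202, 793, 1049, 697 and 681 in the letrozole + anti-PD-1 tumours, against 798, 1088, 1218, 1015 and 1369 in the anti-PD-1 tumours. No letrozole value of Racgap1 reached the vehicle range, and letrozole replicate 4 was the lowest of all tumours. Racgap1 was 1.88-fold lower (log2 −0.91, SE 0.21, adjusted p = 0.0383).

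Hmmr, a microtubule-associated protein of spindle poles, had 1269, 1198, 1516, 827 and 954 normalised counts in the letrozole tumours, against 2235, 2388, 1533, 1982 and 2045 in the vehicle tumours. With the antibody, Hmmr had 1472, 1245, 2306, 966 and 1209.6 in the letrozole + anti-PD-1 tumours, against 2129, 1648, 2281, 1542 and 1755 in the anti-PD-1 tumours. The gap between letrozole replicate 3 and vehicle replicate 3 was narrow but the groups did not overlap for Hmmr, and letrozole + anti-PD-1 replicate 3 was above all anti-PD-1 tumours and the other 4 below. Hmmr was 1.79-fold lower (log2 −0.84, SE 0.20, adjusted p = 0.0458). Ckap2, a spindle microtubule protein, had 862, 629, 692, 394 and 671 normalised counts in the letrozole tumours, against 906, 853, 724, 826 and 1189 in the vehicle tumours. With the antibody, Ckap2 had 866, 896, 1512, 529 and 643 in the letrozole + anti-PD-1 tumours, against 737, 749, 1223, 814 and 986 in the anti-PD-1 tumours. Ckap2 overlapped in both comparisons, and letrozole + anti-PD-1 replicate 3 was the highest of all 20 tumours. Its difference was the smallest of the subgroup (log2 −0.49, 95% interval −0.99 to 0.00, adjusted p = 0.364).

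The rest of the subgroup did not pass with letrozole alone. Ect2, which activates RhoA at the cleavage site, came near the threshold (log2 −0.72, adjusted p = 0.0562), as did Dlgap5, a spindle protein (log2 −0.87, adjusted p = 0.0612), and Prc1, which bundles the central spindle (log2 −0.54, adjusted p = 0.0639). Ckap2l (log2 −0.72), Tpx2, the activator of Aurora A on the spindle (log2 −0.71), and Nusap1, which bundles spindle microtubules (log2 −0.70), had larger adjusted p. Troap had a large but imprecise difference (log2 −0.92, 95% interval −1.61 to −0.22, adjusted p = 0.211).

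Among the 3 genes of chromosome structure none passed limma's threshold with letrozole alone, with 3 at an unadjusted p under 0.05 (13.9% of all tested genes), 0 called by edgeR and 3 by DESeq2. Mki67, whose product coats mitotic chromosomes and marks dividing cells, had 6752, 4616, 4865, 3586 and 4118 normalised counts in the letrozole tumours, against 9189, 5764, 6546, 8717 and 9306 in the vehicle tumours. With the antibody, Mki67 had 7794, 4129, 11274, 5119 and 5371 in the letrozole + anti-PD-1 tumours, against 5119, 6524, 8445, 8234 and 9159 in the anti-PD-1 tumours. Letrozole replicate 1 lay within the vehicle range of Mki67 and the other 4 below it, and letrozole + anti-PD-1 replicate 3 was the highest of all 20 tumours. Mki67 averaged 4787 ± 1203 in letrozole and 7905 ± 1636 in vehicle tumours (SD, n = 5 each), a difference that did not pass (log2 −0.73, SE 0.23, adjusted p = 0.152).

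Top2a, the topoisomerase that untangles chromosomes, had 5603, 5369.9, 6060.3, 3764 and 3869 normalised counts in the letrozole tumours, against 8619.7, 8813, 6961, 8844 and 6945 in the vehicle tumours. With the antibody, Top2a had 8024, 4202, 8359, 4856 and 4294 in the letrozole + anti-PD-1 tumours, against 7953, 6436, 7151, 7232 and 7905 in the anti-PD-1 tumours. Top2a did not overlap between letrozole and vehicle, and letrozole + anti-PD-1 replicates 1 and 3 were above every anti-PD-1 tumour while the other 3 were below every one. It missed the threshold with letrozole alone (log2 −0.72, SE 0.18, adjusted p = 0.0651). Cdca2, which targets a phosphatase to chromatin at mitotic exit, had 589, 411, 461, 273 and 424 normalised counts in the letrozole tumours, against 805, 617, 663, 730.4 and 847 in the vehicle tumours. With the antibody, Cdca2 had 436, 459.9, 817, 426 and 403 in the letrozole + anti-PD-1 tumours, against 921, 611, 788, 640.1 and 591 in the anti-PD-1 tumours. The letrozole and vehicle values of Cdca2 were separate, and only letrozole + anti-PD-1 replicate 3 reached the anti-PD-1 range. Cdca2 did not pass either (log2 −0.79, SE 0.20, adjusted p = 0.0624).

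With the antibody present, every member was again lower with letrozole on average, with a smaller median difference, and 1 passed the test. All 55 members were lower in letrozole + anti-PD-1 than in anti-PD-1 tumours, where 46.1% of tested genes were, and the median log2 difference was −0.32 (0.03 over all tested genes). Only Kif15 fell, 1 of 55, against 0.594% of all tested genes, and edgeR and DESeq2 each called 1 member. Of all tested genes, edgeR called 97 lower and DESeq2 289. An unadjusted p under 0.05 was reached by 10 members, against 13.4% of all tested genes. The call of Kif15 was lost, giving 0 members, without anti-PD-1 replicate 4 or without letrozole + anti-PD-1 replicate 3.

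**Figure D4:**
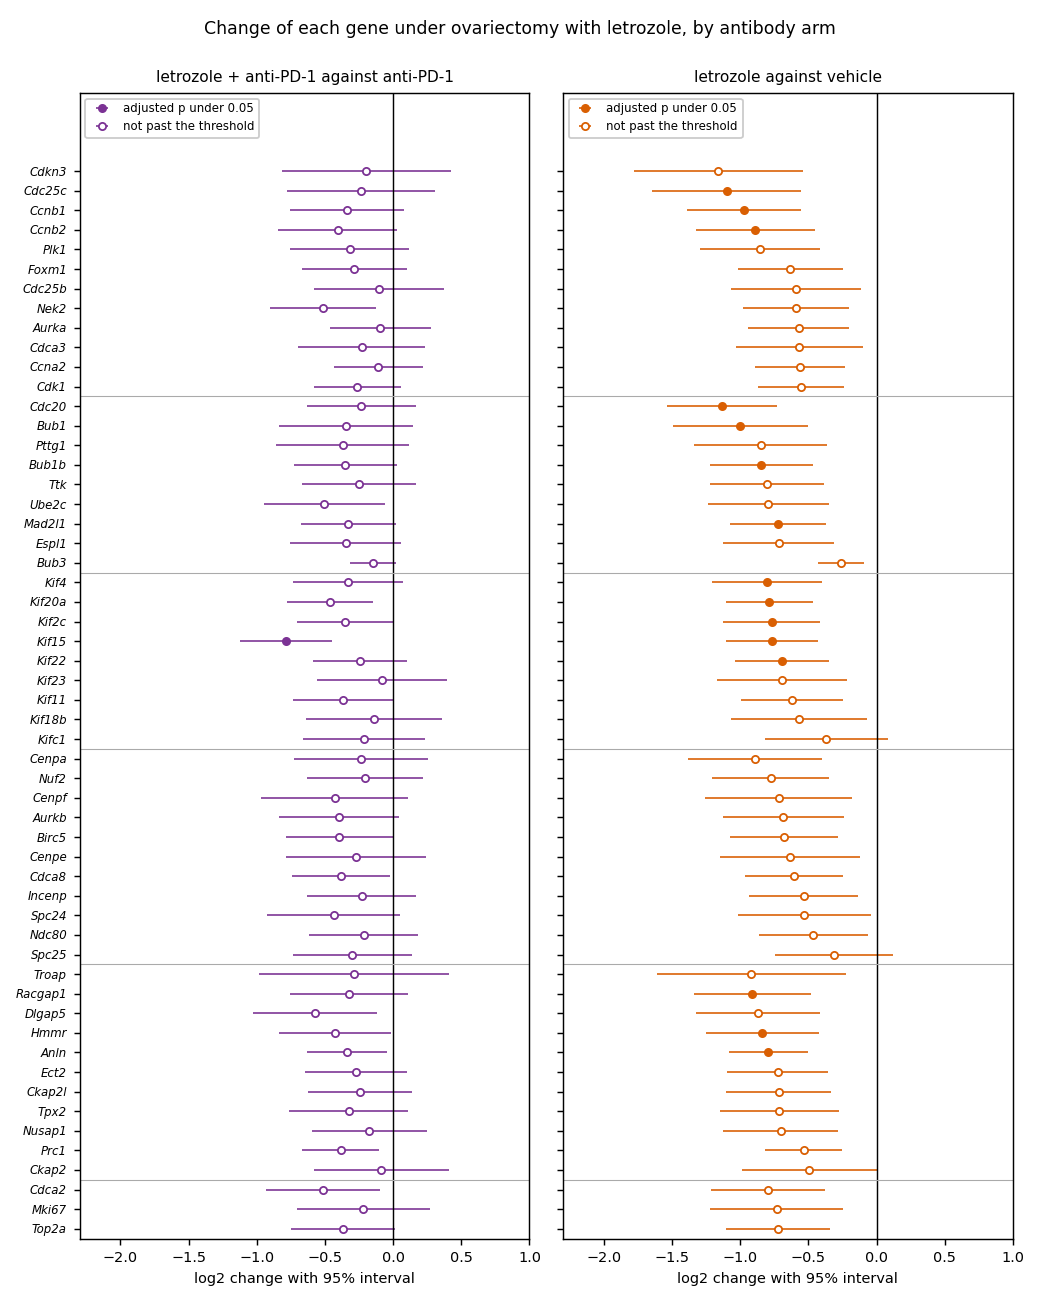
Log2 difference of each of the 55 members with letrozole, with 95% intervals, for letrozole + anti-PD-1 against anti-PD-1 and for letrozole against vehicle, with members ordered by subgroup. All points lie below 0, with medians of −0.32 with the antibody and −0.72 without it.

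Whether the response to letrozole differed with the antibody was tested as an interaction. The interaction was above 0 for 54 of 55 members, with a median of 0.41 on the log2 scale (−0.01 over all tested genes, 51.7% of which were below 0), meaning a smaller decrease with the antibody, but no member passed in limma, where every adjusted p rounded to 1. Within letrozole + anti-PD-1, replicates 1 and 3 were the 2 highest tumours for 47 of 55 members, so the signs of the members are not independent. In limma an unadjusted p under 0.05 was reached by 5 members, against 1.98% of all tested genes. By edgeR and DESeq2 0 members were called, each with 11 at an unadjusted p under 0.05. The share of all tested genes at that level was not computed for these 2 tools, so the 11 cannot be read against it. Limma's 5 were Cdc20 (log2 0.90, unadjusted p = 0.00354), Cdc25c (log2 0.86), Cdkn3 (log2 0.96), Anln (log2 0.45) and Ccnb1 (log2 0.64). For Kif15 the interaction was close to 0 (log2 −0.02, 95% interval −0.50 to 0.45).

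Averaged over both antibody arms, most of the list was lower with letrozole. In limma 37 of 55 members fell and none rose, against 3.72% of all tested genes that fell, and the median log2 difference was −0.53. All 55 members were below 0, as were 45.9% of all tested genes. The average uses the same tumours as the 2 separate comparisons and adds no new ones. The count was 33 by edgeR and 39 by DESeq2, ran from 26 to 42 when single libraries were left out, and was 41 without both libraries that stood apart. Of all tested genes, 739 fell in the main fit, 803 by edgeR, 1116 by DESeq2 and 1114 without both libraries. All 55 members stayed below 0 in all 32 alternatives. Of the 37 members, 25 were called in all 32 alternatives.

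By role, all 9 checkpoint and anaphase-promoting complex genes fell in the average, where 3.72% of all tested genes fell: Bub1, Bub1b, Bub3, Ttk, Mad2l1, Cdc20, Ube2c, Espl1 and Pttg1, from log2 −0.68 for Cdc20 to −0.21 for Bub3. Of the 12 genes of mitotic entry 7 fell, namely Ccnb1, Ccnb2, Cdk1, Cdc25c, Plk1, Nek2 and Foxm1. Ccna2 (log2 −0.33, adjusted p = 0.0765), Aurka (log2 −0.33, adjusted p = 0.117), Cdc25b, Cdca3 and Cdkn3 did not pass. Of the 9 kinesins 6 fell, with Kif15 first (log2 −0.78, SE 0.11, adjusted p = 3.46e-04), then Kif20a (log2 −0.62, adjusted p = 0.00157), Kif2c, Kif4, Kif11 and Kif22, while Kif18b, Kif23 and Kifc1 did not pass.

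Among the 11 centromere, kinetochore and passenger complex genes 5 fell in the average, against 3.72% of all tested genes. They were Cenpa, Nuf2, Aurkb, Birc5 and Cdca8, so that 3 of the 4 passenger complex subunits passed and the fourth, Incenp, did not (log2 −0.38, adjusted p = 0.0926). Cenpa was called in only 16 of 32 alternatives and Nuf2 in 12 of 32. Cenpe, Cenpf, Ndc80, Spc24 and Spc25 did not pass, with adjusted p from 0.0632 for Cenpf to 0.221 for Spc25. Of the 11 spindle and cytokinesis genes 8 fell, namely Anln (log2 −0.57, adjusted p = 0.00177), Prc1 (log2 −0.46, adjusted p = 0.00622), Dlgap5 (log2 −0.72, adjusted p = 0.00733), Hmmr, Racgap1, Ect2, Ckap2l and Tpx2. Tpx2 was called in only 15 of 32 alternatives, while Ckap2, Nusap1 and Troap did not pass. Top2a (log2 −0.54, adjusted p = 0.0145) and Cdca2 (log2 −0.65, adjusted p = 0.00802) fell, and Mki67 did not pass (log2 −0.47, SE 0.17, adjusted p = 0.0879).

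For the antibody on its own no member passed the test. In anti-PD-1 against vehicle tumours limma called 0 of 55, with 0 at an unadjusted p under 0.05 (2.72% of all tested genes), and edgeR and DESeq2 called 0, as limma did over all tested genes (0%). The median log2 difference was −0.11 (0.00 over all tested genes), and 48 members were below 0, where 49.9% of all tested genes were. The intervals for Mki67 (log2 −0.08, 95% interval −0.57 to 0.41), Ccnb1 (log2 −0.18, 95% interval −0.59 to 0.24) and Cdc20 (log2 −0.28, 95% interval −0.68 to 0.12) show the sizes that these groups of 5 could not resolve.

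Added to letrozole, the antibody went with higher means for 54 of 55 members, Bub3 being the exception (log2 −0.02), at a median log2 difference of 0.31 between letrozole + anti-PD-1 and letrozole tumours (−0.01 over all tested genes, 52.2% of which were below 0). In limma no member passed and 0% of all tested genes did in either direction, with 8 members at an unadjusted p under 0.05 (3.15% of all tested genes). Among the members edgeR and DESeq2 called 0 as well, and over all tested genes DESeq2 called 7 lower and 2 higher. The same letrozole tumours stand in this comparison and in letrozole against vehicle, so the signs of these comparisons are not independent. Members also moved together from tumour to tumour, so the 54 signs are not 54 separate observations. Their mean log2 deviation from the 20-tumour means was 0.27 and 0.36 in letrozole + anti-PD-1 replicates 1 and 3. In replicates 2, 4 and 5 it was −0.33, −0.44 and −0.38, within the letrozole range of −0.88 to −0.05. Cdc20 had the smallest p of the members named here with every value (log2 0.62, unadjusted p = 0.00427, adjusted p = 1). Against vehicle tumours, 2 members fell in letrozole + anti-PD-1 tumours, Kif20a (log2 −0.70, adjusted p = 0.0225) and Kif15 (log2 −0.67, adjusted p = 0.0437), beside 0.719% of all tested genes that fell. The members' median there was −0.43, and 32 had an unadjusted p under 0.05, against 13.2% of all tested genes. The count was 6 without both libraries that stood apart, 5 without vehicle replicate 3 and 5 by DESeq2. Of all tested genes 513, 389 and 419 fell in the same order, against 143 in the main fit. The count of members was 0 without vehicle replicate 1, 2 or 5 or without letrozole + anti-PD-1 replicate 4 or 5. It was 1 without vehicle replicate 4, anti-PD-1 replicate 2, 4 or 5, letrozole replicate 5, or letrozole + anti-PD-1 replicate 2 or 3.

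The members moved together from tumour to tumour within the letrozole-treated groups. The mean log2 deviation of the 55 members from their 20-tumour means was 0.27, −0.33, 0.36, −0.44 and −0.38 in the letrozole + anti-PD-1 tumours, −0.05, −0.49, −0.14, −0.88 and −0.49 in the letrozole tumours, 0.23, 0.06, 0.40, 0.07 and 0.26 in the anti-PD-1 tumours and 0.42, 0.32, 0.07, 0.22 and 0.50 in the vehicle tumours. Letrozole + anti-PD-1 replicates 1 and 3 lay within the range of the groups without letrozole, and replicates 2, 4 and 5 within the range of letrozole alone. These 2 tumours were the 2 highest of their group for 47 of 55 members (85.5%), which held for 13.8% of all tested genes, and the exceptions included Kif15 and Bub3. Letrozole replicate 4 was the lowest of its group for 45 of 55 members (81.8%; 18.9% of all tested genes) and the lowest of all 20 tumours for 43. Vehicle replicate 3 was the lowest vehicle tumour for 33 of 55 members (60.0%; 21.6% of all tested genes). The choice of these tumours followed from their values, so the shares are a description.

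**Figure D5:**
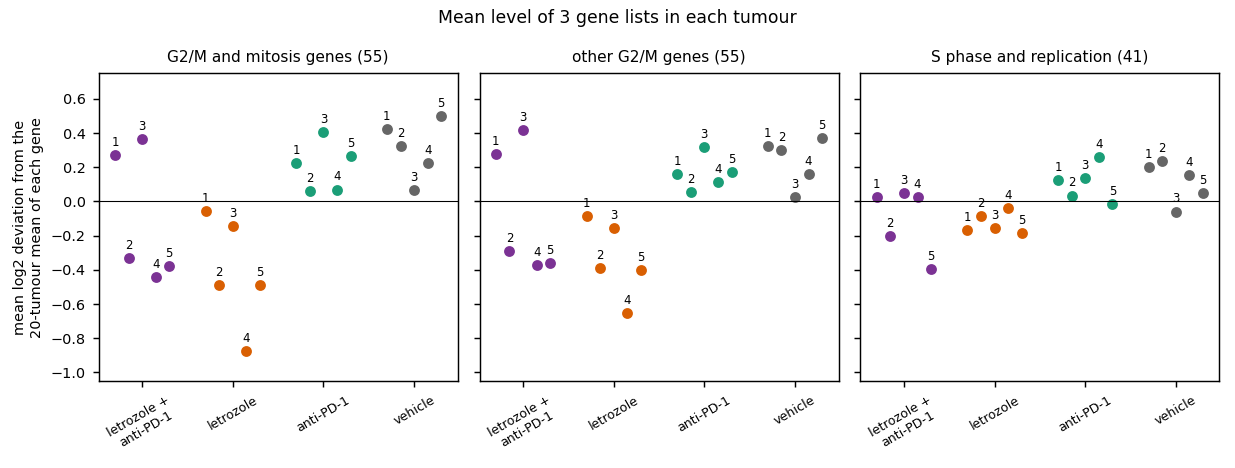
Mean log2 deviation from the 20-tumour mean in each tumour (points) for the 55 members, for 55 other G2/M genes and for 41 S phase genes, with the groups in the order letrozole + anti-PD-1, letrozole, anti-PD-1 and vehicle. For the members the letrozole + anti-PD-1 tumours fall at 0.27 and 0.36 for replicates 1 and 3 and between −0.44 and −0.33 for the others.

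The spread of single members followed this pattern. The median SD of log2 levels over the members was 0.45 in letrozole + anti-PD-1 and 0.35 in letrozole tumours, against 0.24 in anti-PD-1 and 0.24 in vehicle tumours. Over all tested genes it was 0.34, 0.30, 0.40 and 0.34 in the same order, so that members varied more than the typical gene in the groups with letrozole and less in those without. Summed over the 55 members, normalised counts ran from 53752 to 95161 in letrozole + anti-PD-1, from 41633 to 68510 in letrozole, from 73784 to 93476 in anti-PD-1 and from 74353 to 98736 in vehicle tumours. All letrozole sums were below all vehicle sums, and the sums of letrozole + anti-PD-1 and anti-PD-1 tumours overlapped.

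Other genes of the cell cycle were read beside the members. Of 55 other G2/M genes, 5 fell with letrozole alone (median −0.60 on the log2 scale), against 0.548% of all tested genes. In the average over both arms 20 fell (median −0.41), against 3.72% of all tested genes. With the antibody present, limma called 0 of them, 9 had an unadjusted p under 0.05 (13.4% of all tested genes), edgeR called 0 and DESeq2 1. Sgo1, the shugoshin that protects centromeric cohesion, fell with letrozole alone (log2 −0.94, SE 0.17, adjusted p = 0.00728), as did Ncaph (log2 −0.81, adjusted p = 0.0296) and Ncapd2 (log2 −0.59, adjusted p = 0.0406), both subunits of condensin, and Sgo2a (log2 −0.66, adjusted p = 0.0416). The level of Sgo2a is uncertain, since 35% of its exon bases are shared with Kctd18 on the opposite strand. Letrozole + anti-PD-1 replicates 1 and 3 were the 2 highest of their group for 42 of these 55 genes.

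The 41 genes of S phase and replication had smaller differences, with a median of −0.22 for letrozole alone. There 1 fell, against 0.548% of all tested genes. It was Rfc4 of the clamp loader (log2 −0.55, adjusted p = 0.0446), which shares 12.7% of its exon bases with Eif4a2 on the opposite strand. With the antibody present the median was −0.24 and 1 fell (0.594% of all tested genes), Cdt1, which loads the replicative helicase (log2 −0.65, adjusted p = 0.00898). In the average 9 fell, against 3.72% of all tested genes, with a median of −0.25. Rrm1, of ribonucleotide reductase (log2 −0.26, adjusted p = 0.00974), and Mcm10, of the replication fork (log2 −0.50, adjusted p = 0.0279), were among those 9. There, replicates 1 and 3 were the 2 highest letrozole + anti-PD-1 tumours for 13 of 41 genes (31.7%), and letrozole replicate 4 the lowest of its group for 3 of 41 (7.32%). Vehicle replicate 3 was the lowest vehicle tumour for 23 of 41 S phase genes (56.1%), close to its share among the members.

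Of 15 tested genes of the DREAM and MuvB complexes, limma called 0 with letrozole alone, with 5 at an unadjusted p under 0.05 (13.9% of all tested genes), 0 called by edgeR and 2 by DESeq2, and the median was −0.03. In the average 4 fell, against 3.72% of all tested genes: Tfdp1, the partner of E2F factors (log2 −0.33, adjusted p = 0.00318), Mybl2, which encodes B-Myb (log2 −0.55, adjusted p = 0.0283), and the repressor E2Fs E2f4 (log2 −0.42, adjusted p = 0.00177) and E2f5 (log2 −0.43, adjusted p = 0.0259). With the antibody present E2f4 fell (log2 −0.53, adjusted p = 0.0142), the single call of this list there, where 0.594% of all tested genes fell. Lin54 was not analysed here. Among 19 other regulators of mitotic entry and exit, limma called 0 with letrozole alone, with 2 at an unadjusted p under 0.05 (13.9% of all tested genes), 0 by edgeR and 1 by DESeq2. In the average Ube2s, which extends ubiquitin chains for the anaphase-promoting complex, fell (log2 −0.38, adjusted p = 0.0292). Fzr1, the alternative activator of that complex (log2 −0.16, adjusted p = 0.203), and its subunits Anapc2 (log2 0.17, adjusted p = 0.114) and Cdc16 (log2 −0.22, adjusted p = 0.0754) did not pass.

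The 14 genes of G1 and quiescence had a positive median. Their median log2 difference with letrozole alone was 0.23, where limma called 0, with 4 at an unadjusted p under 0.05 (13.9% of all tested genes), 0 by edgeR and 1 risen by DESeq2. In the average Btg1, an antiproliferative gene (log2 0.40, adjusted p = 0.00748), and Rb1, the retinoblastoma protein (log2 0.65, adjusted p = 0.0377), rose in limma, against 3.28% of all tested genes that rose. Rb1 shares 14.9% of its exon bases with Rcbtb2 on the opposite strand. Cdk6 (log2 0.61, adjusted p = 0.0773) and Ccnd2 (log2 0.91, adjusted p = 0.217), a kinase of G1 and its cyclin D2, did not pass.

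Markers of other cell types differed between some tumours with the members. For letrozole against vehicle, all 10 macrophage markers were above 0, with summed values from 6720 to 13622 in letrozole and from 1846 to 19115 in vehicle tumours. Of them limma called 0, with 2 at an unadjusted p under 0.05, as were 13.9% of all tested genes with letrozole alone, and edgeR and DESeq2 called 0. The fibroblast sums ran from 9239 to 75591 in letrozole and from 2515 to 66531 in vehicle tumours, and of the 10 markers 9 were above 0, with 0 called by limma, 3 at an unadjusted p under 0.05, and 0 by edgeR and DESeq2. All 8 basal markers were above 0, with sums from 607 to 19361 in letrozole and from 241 to 2512 in vehicle tumours, 0 called by limma, 5 at an unadjusted p under 0.05, 1 risen by edgeR and 4 by DESeq2. Trp63, the defining basal factor, was at 0 in 5 of 20 libraries. Skeletal muscle markers summed to 1662, 1049 and 939 in letrozole replicates 1, 4 and 5 and to 2052 in letrozole + anti-PD-1 replicate 2, and to at most 193 elsewhere. Of the 7 tested, limma called 0 with letrozole alone, with 4 at an unadjusted p under 0.05, 0 by edgeR and 1 risen by DESeq2. Of the endothelial, T cell, B and plasma cell, NK cell and adipocyte lists, limma, edgeR and DESeq2 called 0 with letrozole alone, and limma gave an unadjusted p under 0.05 to 1 gene, of the B and plasma cell list. Of the 8 luminal markers, limma and edgeR called 0 and DESeq2 1 risen, with 1 at an unadjusted p under 0.05 in limma.

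With the antibody present, all 10 macrophage markers were above 0, with sums from 5710 to 13573 in letrozole + anti-PD-1 and from 2645 to 10442 in anti-PD-1 tumours, and limma called 0, with 1 at an unadjusted p under 0.05 (13.4% of all tested genes). In the average over both arms, where 37 members fell, all 10 macrophage markers were above 0 as well, at a median log2 difference of 0.76. Of them limma called 0, with 7 at an unadjusted p under 0.05, as were 22.9% of all tested genes in the average, and edgeR and DESeq2 called 0. Of the fibroblast markers 9 of 10 were above 0 in the average (median 0.92), with 0 called by limma, edgeR or DESeq2 and 4 at an unadjusted p under 0.05 in limma. All 8 basal markers were above 0 (median 1.42), with 0 called by limma, 3 at an unadjusted p under 0.05, 1 risen by edgeR and 3 by DESeq2. All 7 tested muscle markers were above 0 (median 2.10), with 0 called by limma, 3 at an unadjusted p under 0.05, 5 risen by edgeR and 4 by DESeq2. Of the endothelial, T cell, B and plasma cell, NK cell and adipocyte lists limma and edgeR called 0 in the average and DESeq2 1 risen, of the B and plasma cell list, and in limma 1 gene each of the first 3 lists had an unadjusted p under 0.05. The luminal marker Epcam, an epithelial adhesion protein, rose in limma in the average (log2 0.52, adjusted p = 0.00142) and with the antibody present (log2 0.57, adjusted p = 0.0324). It was the only 1 of the 8 luminal markers called in either, where 3.28% and 0.478% of all tested genes rose. The median log2 difference of the 8 was 0.12 in the average, with 1 below 0, and 0.11 with the antibody present, with 2 below 0.

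Within groups, vehicle replicate 3, lowest for 33 members, had a fibroblast sum of 66531 against at most 19452 in the other vehicle tumours, and a macrophage sum of 19115 against at most 6287. Letrozole + anti-PD-1 replicates 1 and 3 had the lowest macrophage sums of their group, 5710 and 7096, and the lowest basal sums, 769.7 and 1238. Letrozole replicate 4, lowest for 45 members, had the highest mean log2 deviation of the T cell list in its group, at 1.92, and the highest value of its group for 5 of 9 T cell genes. Letrozole replicate 5 was close, at 1.74. Some T cell genes lay near 0: Cd3e and Cd8a had medians of 7.18 and 6.91 and were at 0 in 4 of 20 libraries each, while Cd3d had a median of 75.9. The fibroblast and basal sums of letrozole replicate 4, 38702 and 5777, were second to those of letrozole replicate 5. Its muscle sum was second to that of replicate 1, and its macrophage sum, 9273, was the third of the group. Other tumours differed from these. Vehicle replicate 4 had the lowest fibroblast and macrophage sums of its group, 2515 and 1846, and its mean log2 deviation of the members, 0.22, lay among the other vehicle tumours. Anti-PD-1 replicate 2 had the lowest of its group, 5811 and 2645, and also the lowest mean deviation of the members, 0.06. Letrozole replicate 5 had the highest of its group, 75591 and 13622, and was the lowest for 4 members. The part of other cell types in the differences of the members was not tested.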

How the data were processed

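Per the labels, bulk RNA-seq was done on 20 tumours, with a Qiagen AllPrep extraction and a Swift Rapid library kit from 1 µg of total RNA. STAR 2.7.10a, DESeq2 and the build GRCm39 (mm39) are named per the submitters' processing notes. For counter, annotation, strand setting and filter nothing was given in the sources used here. A deposited table has 127442 Ensembl transcripts in 20 libraries, with values in the unit signal, here each read count over the size factor of its library (0.472 to 1.46). Whole reads were recovered for 100% of values at a tolerance of 0.001. Among recovered counts of 1 to 20, from 56.1% to 63.8% were even, for a reason not given in the sources used here, so a count may not stand for 1 independent molecule. No column was left out.

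The design assumed a table of genes. Gene names therefore came from GENCODE vM21 (GRCm38), which named 118889 transcripts (93.3%), and 8553 without a name were left out. For each gene the transcript with the highest total was kept, and 50 genes with a shared symbol were dropped. The members and all lists were chosen with earlier results of these data known. Members overlapping genes of the other strand are uncertain. Beside those named with their values, Ccna2 shares 12.5% of its exon bases, Prc1 11.1%, Plk1 7.1%, Nek2 6.6%, Ckap2l 5.8%, Cdca8 4.5%, Nusap1 4.2%, Cdc20 2.8%, Troap 2.7%, Cdc25b 2.5% and Kif22 2.0%, and on the same strand Foxm1 shares 2.5% and Top2a 1.4%.

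The main test was limma 3.58.1 (R 4.3.3) with a trend on log2(value + 1), for genes that reached 10 in 5 or more libraries. All 20 libraries entered 1 fit of 4 group means (16 residual degrees of freedom), with 7 contrasts and two-sided p-values adjusted by Benjamini and Hochberg over all tested genes of a contrast at 0.05. Adjusted p-values and SEs are from limma on this scale, which understates changes of low genes, and folds are computed from them. The procedure was tested on simulated data. Alternatives were pseudocounts of 0.5 and 5, no filter, a minimum of 50, quantile normalisation, centring, the 2 groups alone, a replicate block, the sum over transcripts, array weights, leaving out each library or both that stood apart, and the recovered reads in DESeq2 1.42.0 and edgeR 4.0.16. All 20 values are given for 10 members fixed by name and, in each subgroup, for up to 3 with the smallest p and the 1 with the smallest difference between letrozole and vehicle. Genes of other lists are up to 4 with the smallest p. The labels give no sequencing batch. Same-numbered tumours of different groups did not deviate together: correlations of 30 pairs ran from −0.34 to 0.20, 3 of them over 0.1.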

Additional observations from a re-analysis of the deposited data

Results flagged for a closer look

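Of 108 groups of 5 values examined, 5 held a highest value far from the other 4, about as many as the 1 in 20 groups that chance gives. In anti-PD-1 tumours, replicate 3 had 1833 normalised counts of Cdk1, with the next at 1408. The same tumour had 1769 counts of Plk1, with the next at 1178. Anti-PD-1 replicate 1, the shallowest library, had 2126 counts of Bub3, with the next at 1896. In letrozole + anti-PD-1 tumours, replicate 1 had 1811 counts of Kif20a, with the next at 1283, and replicate 3 had 817 counts of Cdca2, with the next at 459.9.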

How the results depend on the processing

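Direction was stable: for letrozole alone and for the average, all 55 members stayed below 0 in every alternative run, and no gene given with every tumour turned sign. For those 27 genes, 731 of 891 values kept their side of the threshold, 101 lost a call and 59 gained one. The number of members called with letrozole alone, 15, moved to 6 without the filter, 42 with array weights, 36 without both libraries that stood apart, 8 by edgeR and 41 by DESeq2. The number of all tested genes that fell, 109, moved to 70, 367, 489, 108 and 371 in the same order. Leaving out single libraries gave 2 to 32 members, with the libraries named in the report. For letrozole + anti-PD-1 against vehicle the count of 2 moved to 1 without the filter, 1 with quantile normalisation, 1 with centring and 1 with only the 2 groups, and to 8 with array weights, 6 without both libraries that stood apart and 5 by DESeq2, with 0 to 5 when single libraries were left out. The number of all tested genes that fell there, 143, moved to 109, 146, 130 and 73 and to 337, 513 and 419, in the order of those settings. For letrozole with the antibody the count of 1 member became 0 to 1 on leaving out single libraries. The cause was not tested. Counts for the antibody alone, the antibody added to letrozole and the interaction stayed at 0 in every alternative run. Fitting only the 2 groups could not be done for the average and the interaction. With 5 tumours a group and SEs near 0.20, a log2 change of the size seen with the antibody present, −0.32, could not be told from none for most members.

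No pairing of tumours by replicate number was seen in the correlations of deviations, which cannot exclude one. With the replicate block, 23 members were called for letrozole alone, 4 for letrozole + anti-PD-1 against vehicle, 1 for letrozole with the antibody and 40 in the average. Of all tested genes 133, 183, 138 and 754 fell in the same order.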
